A study of Camellia sinensis with 12 samples.

Results

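Tea leaves withered for 24 h were compared with leaves withered for 9 h, so that both groups had already left the fresh state and the comparison sets late withering against early withering. The members are the 3 libraries of 24 h and the 3 libraries of 9 h, 6 of the 12 libraries of the series, chosen by the withering time in the sample labels, and the 26712 genes that passed the filter on low counts of the 52332 in the table. Both groups came from shoots of the tea plant, Camellia sinensis (cultivar Longjing43), plucked as buds and young leaves and kept at 25 °C and 65% relative humidity, and the 0 h and 15 h libraries of the same course served to place the levels and to estimate the spread in the shared fit. The light is given as 2000 lux in the study's methods and as 0 lux in the labels. No unwithered leaves were sampled at 9 h or 24 h, so withering and the hour of the day cannot be told apart in this comparison. The 0 h and 24 h libraries share the hour of the day. Neither the labels nor the methods state that the 3 replicates were withered as separate batches, so the p-values rest on the spread between libraries that may be technical repeats.

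Withering is the first step of tea making, in which plucked leaves lose water while their cells stay alive. Plants short of water first make abscisic acid (ABA), a hormone that closes stomata and switches on protective genes, and cut leaves also respond to wounding through jasmonate, an oxidised fatty acid signal, and ethylene, a gas. Detached leaves later senesce: they break down chlorophyll and the proteins of photosynthesis, and export or store the released nitrogen and carbon. WRKY, NAC and AP2/ERF proteins are transcription factor families that carry much of these responses in Arabidopsis.

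The 9 h libraries held 83365579 to 118261728 counts and the 24 h libraries 66920678 to 97055141. The 10 most abundant genes took 4.98 to 5.54% of the counts at 9 h and 8.83 to 9.54% at 24 h. Replicates resembled each other more than other times in all 12 libraries, although the 24 h replicates were less alike (Pearson r of log2 values 0.960 to 0.969 over genes) than those of 9 h (0.981 to 0.984). Genes are named by the identifier and description in the table, where most descriptions are those of an Arabidopsis relative. Levels are CPM, counts scaled to a common library total that was first corrected by the trimmed mean of M-values (TMM). Gene length does not enter them, so a level is set against that of the same gene only, apart from near copies. Fold changes are on the log2 scale, 24 h minus 9 h, with their standard error (SE), and every adjusted p is that of the quasi-likelihood F test of edgeR, fitted to all 12 libraries (n = 3 per time), after Benjamini-Hochberg adjustment over all genes tested.

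Between 9 h and 24 h, 8007 genes rose and 9292 fell at an adjusted p under 0.05, which is 30.0% and 34.8% of the genes tested, and 64.8% in either direction. Of these, 3011 rose and 3969 fell by more than 2-fold when that fold was the null value of the test. The median log2 fold change of all genes was -0.11. With library size as the only scaling that median moved by a further -0.46, and 4975 genes rose and 13268 fell, so that 27.3% of the calls were rises in place of 46.3%. The share of rises thus depended on the scaling, and the counts of gene lists are given under both scalings where the majority turns or a count moves by over 1.5 times. Because most genes passed the test, a list in which 30.0% of the members rose and 34.8% fell does not differ from the rest of the table.

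Genes of secreted defence proteins, an allene oxide synthase, an ethylene response factor and laccases were among those with the larger rises. A rubisco activase, receptor-like kinases, NAC036 and a chloroplast lipoxygenase were among those with the larger falls. The plot of levels over the course shows 12 of these genes in every library. For every gene given below the 24 h libraries all lay on one side of the 9 h libraries, unless an overlap is stated.

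**Figure D1:**
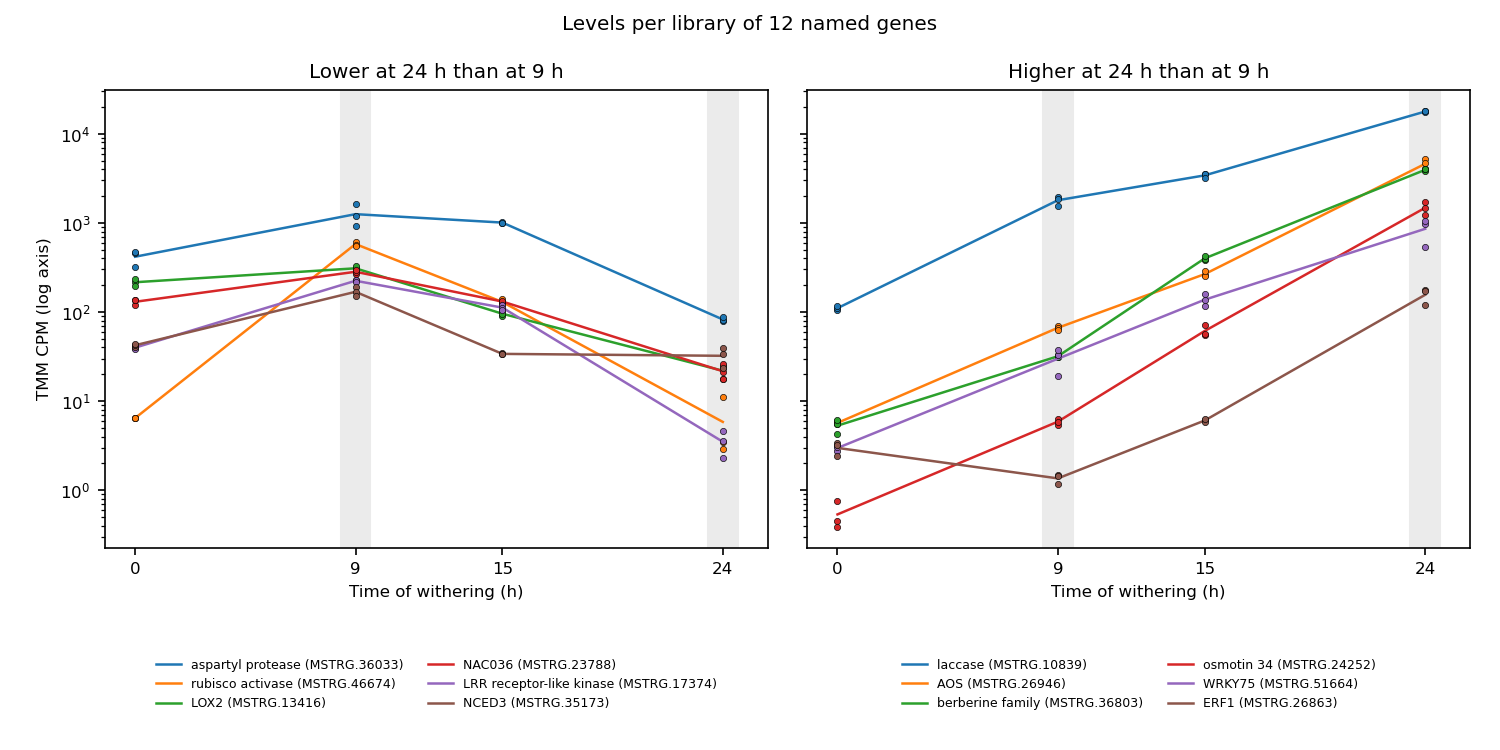
Level of 12 named genes in each of the 12 libraries (TMM CPM, log axis) against the time of withering in h, with points for libraries, lines through the means and grey bands at the 9 h and 24 h libraries compared. On the left are 6 genes that were lower at 24 h than at 9 h in every library, and on the right 6 that were higher, with osmotin 34 going from a mean of 5.89 to 1477 CPM and a rubisco activase from 578 to 5.85 CPM.

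Of the 43 lists, which leave out those added after the values were seen, that of the secreted defence proteins had the highest median. They include osmotins and other pathogenesis-related proteins, chitinases that cut fungal chitin, and beta-1,3-glucanases. Of 93 members tested, 47 rose and 14 fell, with a median of 0.96 against -0.11 for all genes, and 40 rose and 21 fell with library size as the only scaling. Osmotin 34 (MSTRG.24252, scaffold 2987, 926132 to 926812) was at 5.42, 6.35 and 5.90 CPM in the 9 h libraries and at 1729, 1217 and 1486 CPM in the 24 h libraries. The lowest 24 h library was thus far above the highest 9 h library, and the log2 fold change was 7.97 (SE 0.23, adjusted p = 3.24e-11). Its level was 0.536 CPM at 0 h and 61.3 CPM at 15 h, so most of the gain in CPM came after 15 h.

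Other osmotin 34 genes followed the same order of groups. MSTRG.46154 rose from 22.2, 21.4 and 18.97 CPM at 9 h to 1046, 816 and 1054 CPM at 24 h (log2 fold change 5.54, SE 0.19). MSTRG.46153, which lies 15483 bases from it on scaffold 7647, was at 2.36, 2.41 and 2.02 CPM and then at 179, 121 and 149.7 CPM. MSTRG.47680 was at 28.9, 26.8 and 23.2 CPM at 9 h and at 665, 2093 and 797 CPM at 24 h. Here the 24 h libraries differed widely among themselves, replicate 2 being the highest, and the log2 fold change was 5.49 (SE 0.39). All 7 tested genes described as osmotin 34 rose. How reads were split between genes of the same description is not given in the sources used here, so the values of such near copies are uncertain as to which copy they belong to.

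A basic chitinase (MSTRG.50154) was at 42.2, 38.1 and 47.6 CPM in the 9 h libraries and 2966, 1890.4 and 2373 CPM in the 24 h libraries. All 5 tested genes described as beta-1,3-glucanase 3 rose, MSTRG.10513 from 33.1, 34.1 and 38.4 CPM to 2465, 2265 and 2434 CPM (log2 fold change 6.08, SE 0.15, adjusted p = 1.11e-11). MSTRG.10510, on the same scaffold 1727, was at 14.6, 12.5 and 13.9 CPM and then at 445, 333 and 393 CPM. In each of these 3 genes even the lowest 24 h library stood far above the 9 h libraries. Of the 7 tested basic chitinase genes 3 rose, and the others were not called. The basic pathogenesis-related protein 1 (MSTRG.5132), whose relatives mark salicylate responses in Arabidopsis, was called at an adjusted p = 3.70e-04 but varied widely between libraries, at 9.09, 2.50 and 1.72 CPM at 9 h and 153, 758 and 269.7 CPM at 24 h.

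Jasmonate genes moved both ways, also among genes of the same lipoxygenase or allene oxide synthase description. The list of 36 lipoxygenase and jasmonate genes was near the share for all genes, with 12 that rose and 15 that fell, yet it held some of the larger shifts in level in both directions. Lipoxygenases add oxygen to linolenic and linoleic acid. LOX2, which in Arabidopsis acts in the chloroplast and feeds jasmonate synthesis, is the description of 4 tested genes, of which 3 fell. MSTRG.13416 was at 312, 289 and 327 CPM at 9 h and 23.4, 24.7 and 17.6 CPM at 24 h (log2 fold change -3.82, SE 0.13, adjusted p = 8.92e-11). MSTRG.13379 was at 198, 179 and 175 CPM and then 28.7, 20.1 and 24.2 CPM, and MSTRG.40930 at 60.3, 54.1 and 52.5 CPM and then 6.77, 6.12 and 6.82 CPM. In all 3 the highest 24 h library lay below the lowest 9 h library. The gene at the highest level, MSTRG.2052, was instead at 1003, 946 and 923 CPM at 9 h and 1276, 1296 and 1295 CPM at 24 h, a small rise (log2 fold change 0.43, SE 0.06, adjusted p = 3.54e-05), and with library size as the only scaling its log2 fold change was -0.033 and did not pass.

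One of 3 genes described as lipoxygenase 1 (MSTRG.6150, scaffold 1403, 75380 to 85894), which in Arabidopsis oxygenates another position of the fatty acid chain, moved the other way. It was at 315, 315 and 307 CPM at 9 h and 2356, 2625 and 2487 CPM at 24 h, an 7.97-fold difference in means (log2 fold change 2.995, SE 0.07, adjusted p = 8.37e-12). The other lipoxygenase 1 genes fell, MSTRG.4691 from a mean of 221 to 67.5 CPM and MSTRG.7810 from 11.7 to 7.65 CPM. The call of MSTRG.7810 was lost without replicate 2 of 9 h (adjusted p = 0.0627) and without replicate 1 or 3 of 24 h (0.0671 and 0.051). Allene oxide synthase (AOS) takes lipoxygenase products towards jasmonate. One AOS gene (MSTRG.26946, scaffold 3359, 639462 to 641033) rose from 70.3, 66.1 and 63.1 CPM to 5154, 3999.7 and 4646 CPM, 69.2-fold in means and the most in the list (log2 fold change 6.11, SE 0.11, adjusted p = 3.69e-12). Another AOS gene, MSTRG.27344, went down from 64.7, 61.02 and 57.7 to 32.5, 34.3 and 33.3 CPM (log2 fold change -0.87, SE 0.07). Of this pair, the gene that was at the lower level at 0 h (5.70 against 122 CPM) was thus the one that rose.

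Downstream, 12-oxophytodienoate reductase 2 (MSTRG.48190), a reductase of the jasmonate precursor and related compounds, was at 97.4, 98.8 and 106 CPM at 9 h and 721, 849 and 815 CPM at 24 h. Hydroperoxide lyase 1 (MSTRG.18187), which turns the same lipoxygenase products into green leaf volatiles, fell from 564, 541 and 489 to 242, 138 and 180.4 CPM (log2 fold change -1.51, SE 0.16). JAZ proteins repress jasmonate responses and their genes are themselves switched on by jasmonate. JAZ10 (MSTRG.18901) had 161, 159.9 and 145 CPM at 9 h, 67.1, 72.8 and 75.5 CPM at 15 h and 825, 610.4 and 733 CPM at 24 h. The level was lower at 15 h than in either group compared, and the 24 h libraries were all above those of 9 h (log2 fold change 2.22, SE 0.11). JAZ10 gene MSTRG.17313 had the same order, at 86.6, 34.5 and 442 CPM on average at 9, 15 and 24 h. JAZ1 (MSTRG.49027) also stood lower at 15 h, with a mean of 395 CPM, but its 9 h level (1386, 1439 and 1332 CPM) and its 24 h level (1481, 1215 and 1332 CPM) overlapped and it did not pass the test (log2 fold change -0.05, SE 0.08, adjusted p = 0.657). By library size alone JAZ1 was lower at 24 h, with a log2 fold change of -0.51 (adjusted p = 3.85e-05).

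Ethylene genes rose more often than they fell. Of 24 members tested, 13 rose and 4 fell (median 0.60), and 9 rose and 5 fell by library size alone. The count that fell was 2 without replicate 2 of 9 h and 2 without replicate 3 of 24 h. Ethylene is made from the amino acid ACC, by ACC synthase and then ACC oxidase, which the table calls ethylene-forming enzyme. ACC synthase 2 (MSTRG.31344) was at 3.997, 4.10 and 3.85 CPM at 9 h and 96.6, 117 and 102 CPM at 24 h (log2 fold change 4.72, SE 0.28, adjusted p = 1.22e-08), from 0.0417 CPM at 0 h. The ACC oxidase gene MSTRG.29381 rose from 42.9, 39.6 and 43.2 to 909, 632 and 729.5 CPM, 18.1-fold in means. MSTRG.47170, at a higher level throughout, rose from 2316, 2266 and 2377 to 7607, 6146 and 6534 CPM. The one ACC oxidase gene of 4 that fell was MSTRG.43820, from 87.8, 77.9 and 81.2 to 47.9, 38.7 and 47.7 CPM. EIN3-binding F-box protein 1, which in Arabidopsis marks the ethylene regulator EIN3 for destruction and is induced by it, had 4 tested genes, all of which were lowest at 9 h and rose. MSTRG.33958 was at a mean of 663 CPM at 0 h, at 119, 121 and 112 CPM at 9 h and at 665, 869.7 and 755 CPM at 24 h. The mean of MSTRG.775 was 153 CPM at 0 h, 6.55 CPM at 9 h and 49.4 CPM at 24 h, so its 24 h level stayed below that of fresh leaves. MSTRG.31648 and MSTRG.17621 had log2 fold changes of 1.92 and 1.19 (SE 0.10 and 0.10).

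AP2/ERF factors, many of which act in ethylene responses, were the transcription factor family with the largest share of rises among the 5 tested. Of 123 members, 64 rose (52.03%) and 19 fell (15.4%), with a median of 0.82, and 56 rose and 28 fell by library size alone. ERF1 (MSTRG.26863), an activator of defence genes in Arabidopsis that responds to ethylene together with jasmonate, was at 1.47, 1.16 and 1.44 CPM in the 9 h libraries and 121, 175 and 172 CPM in those of 24 h. It had 6.07 CPM at 15 h, and the log2 fold change was 6.84 (SE 0.19, adjusted p = 2.81e-11). MSTRG.28592, described as ethylene responsive element binding factor 2, rose from 2.98, 3.11 and 3.30 to 59.3, 42.7 and 50.8 CPM, and MSTRG.22476 of the same description from 0.550, 0.960 and 0.634 to 12.1, 13.3 and 12.6 CPM.

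WRKY factors did not move as a block. Of 79 members, 39 rose and 26 fell (median 0.35), which turned to 27 that rose and 32 that fell by library size alone. Genes described as WRKY75, an activator of leaf senescence in Arabidopsis, rose in all 3 cases tested. MSTRG.51664 was at 32.7, 19.3 and 37.8 CPM at 9 h and 542, 979.6 and 1052 CPM at 24 h, MSTRG.21507 at 27.4, 29.7 and 30.6 and then 369, 386 and 461 CPM, and MSTRG.28175 at 0.295, 0.0904 and 0.284 and then 25.6, 28.4 and 32.6 CPM. Their log2 fold changes were 4.84 (SE 0.29), 3.79 (SE 0.11) and 6.97 (SE 0.35). WRKY33 (MSTRG.24968), needed for defence against necrotrophic fungi in Arabidopsis, rose from 73.2, 73.9 and 70.7 to 308, 282 and 282 CPM.

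WRKY70 acts in salicylate signalling and delays senescence in Arabidopsis, and 4 of the 5 tested genes of that description fell. MSTRG.3414 was at 59.9, 66.8 and 69.1 CPM at 9 h and 9.30, 6.27 and 3.75 CPM at 24 h (log2 fold change -3.34, SE 0.23, adjusted p = 4.89e-08). MSTRG.27418 and MSTRG.5422 were at 66.5, 63.5 and 64.4 and 31.3, 36.95 and 31.4 CPM at 9 h, and at 9.500, 5.65 and 9.91 and 5.16, 4.31 and 1.99 CPM at 24 h. MSTRG.38281 fell less (log2 fold change -1.41, SE 0.13), and MSTRG.24169 rose from a mean of 24.9 to 42.6 CPM. WRKY50 (MSTRG.10852) fell in the same way, from 66.2, 62.7 and 80.2 to 10.7, 3.75 and 2.90 CPM. Of 4 genes described as WRKY40, a stress-induced regulator, 1 rose and 3 fell: MSTRG.49422 rose from 167, 172 and 177 to 858, 757 and 804 CPM (log2 fold change 2.23, SE 0.07), and MSTRG.6799 fell from 57.4, 60.4 and 66.4 to 8.25, 9.36 and 11.4 CPM (log2 fold change -2.67, SE 0.12). Both had stood at like levels in fresh leaves, 15.3 and 14.7 CPM. The WRKY40 genes MSTRG.17282 and MSTRG.1888, at higher levels, fell slightly, with log2 fold changes of -0.44 and -0.37 (SE 0.10 and 0.07).

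**Figure D2:**
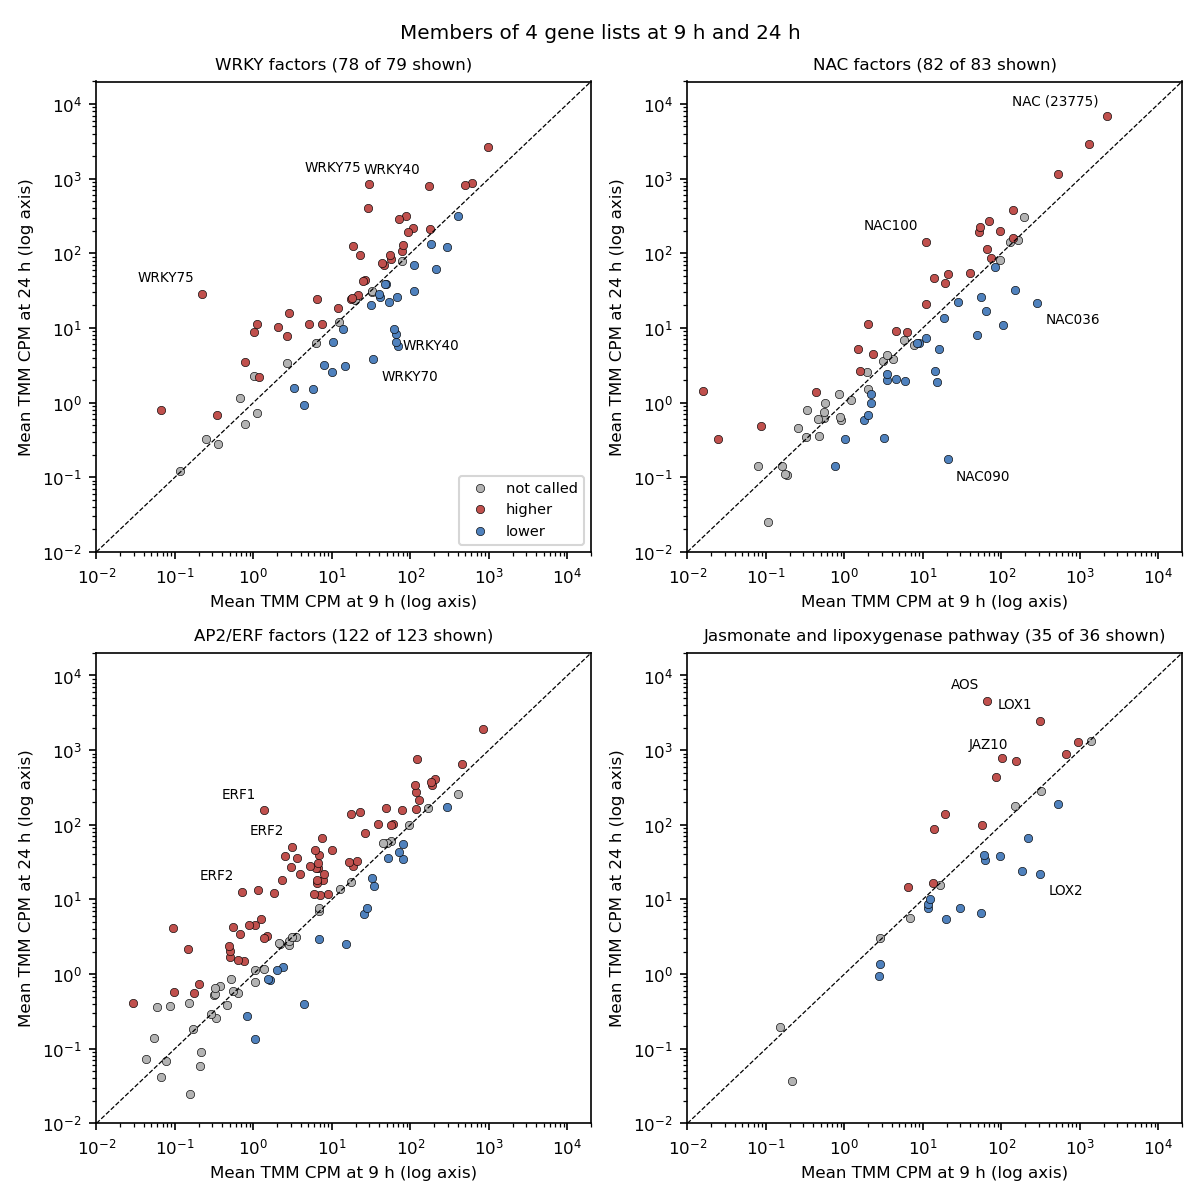
Mean level at 24 h against mean level at 9 h (TMM CPM, log axes, 3 libraries each) of the members of 4 gene lists, coloured by the edgeR call, with the dashed line marking equal levels. AP2/ERF factors that rose outnumber those that fell (64 and 19, and 56 and 28 by library size alone), while WRKY factors, NAC factors and jasmonate genes spread to both sides, the majority of the WRKY factors turning from rises under TMM to falls by library size alone and that of the NAC factors from falls to rises with DESeq2's size factors.

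NAC factors moved both ways. Of 83 members, 27 rose and 28 fell (median 0.08), while 28 rose and 24 fell with the size factors of DESeq2 and 21 rose and 36 fell by library size alone, so the balance depended on the scaling. The gene at the highest level, MSTRG.23775, described only as a NAC domain regulator, was at 2154, 2294 and 2162 CPM at 9 h and 7376, 6108 and 7004 CPM at 24 h. NAC100 (MSTRG.37309) rose from 12.2, 9.38 and 11.3 to 142, 137 and 148 CPM and NAC019 (MSTRG.6318), an ABA- and jasmonate-responsive factor in Arabidopsis, from 72.9, 68.9 and 67.5 to 287, 250.0 and 269 CPM. NAC036 (MSTRG.23788) fell from 270.0, 282 and 296 CPM at 9 h to 26.1, 17.7 and 21.2 CPM at 24 h (log2 fold change -3.71, SE 0.13, adjusted p = 1.06e-10). NAC090 (MSTRG.27682), a repressor of senescence in Arabidopsis, was at 18.01, 21.1 and 22.98 CPM at 9 h and at 0.109, 0 and 0.412 CPM at 24 h, with no read in replicate 2 of 24 h. Its 15 h level was 4.68 CPM and its 0 h level 10.9 CPM.

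ABA genes were near the background as a group and divided within each step. Of 47 members 18 rose and 16 fell, and 11 rose and 24 fell by library size alone. NCED3, the description of 3 tested genes, cuts a carotenoid in the step that limits ABA synthesis. Of these genes 2 rose and 1 fell, and the largest rise was that of MSTRG.19129, by 1.62 on the log2 scale. MSTRG.35173 was at 189, 167 and 150.3 CPM in the 9 h libraries and 23.5, 39.2 and 34.1 CPM in the 24 h libraries (log2 fold change -2.39, SE 0.15, adjusted p = 2.19e-08). The 0 h mean was 42.4 CPM and the 15 h mean 33.9 CPM, so among the 4 times this gene was highest at 9 h. MSTRG.26007, at a higher level, was at 390.2, 352 and 323 CPM at 9 h, 143, 152 and 163 CPM at 15 h and 437, 534 and 543 CPM at 24 h, a rise of 0.51 on the log2 scale (SE 0.10) across a lower level at 15 h, which by library size alone was 0.046 and did not pass (adjusted p = 0.679). Zeaxanthin epoxidase (MSTRG.40888), which acts earlier in that pathway, fell from 62.1, 53.1 and 65.9 to 25.2, 24.6 and 20.03 CPM. Phosphatase genes described as highly ABA-induced, which damp the ABA signal, also divided. MSTRG.18084 fell from 128, 141 and 139 to 50.4, 48.6 and 51.8 CPM and MSTRG.3961 from 69.4, 70.8 and 59.3 to 20.7, 30.8 and 23.5 CPM, while MSTRG.25516 and MSTRG.2767, at higher levels, rose from means of 665 and 499 to 929 and 852 CPM. A gene of this description at a lower level, MSTRG.40750, rose by 0.46 (SE 0.14), and by library size alone its log2 fold change was -0.0070 and did not pass. The rise of MSTRG.25516 was also lost by library size alone, at 0.022 (adjusted p = 0.821), and that of MSTRG.40750 without replicate 1 of 24 h (adjusted p = 0.0629). An ABA receptor gene (MSTRG.39086) rose from 20.8, 18.4 and 21.3 to 52.4, 46.99 and 47.9 CPM, and ABA-responsive element binding protein 3 (MSTRG.33097) from 21.5, 20.1 and 23.04 to 67.1, 54.6 and 68.8 CPM. CYP707A enzymes break ABA down, and of the 2 named, MSTRG.13842 rose (log2 fold change 1.79, SE 0.22) and MSTRG.1847 fell (-1.61, SE 0.15).

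Protective proteins and sugars changed members between 9 h and 24 h. The most abundant gene of both groups was a dehydrin (MSTRG.9070, described as xero 1, scaffold 1618, 737076 to 738807), a hydrophilic protein that protects drying cells. It was at 18096, 18464 and 17247 CPM at 9 h and 45387, 34497 and 40345 CPM at 24 h (log2 fold change 1.16, SE 0.11, adjusted p = 8.47e-07). Other dehydrins fell over the same hours: MSTRG.44795 from 6502, 6294 and 5821 to 3795, 3165 and 3655 CPM, and cold-regulated 47 (MSTRG.44799), 26455 bases away on scaffold 714, from 638, 609 and 588 to 210.1, 159 and 193 CPM. A late embryogenesis abundant (LEA) protein (MSTRG.7807) fell from 1089, 1103 and 1057 to 498, 382 and 422 CPM, and an LEA protein of group 6 (MSTRG.46050) rose from 84.1, 95.5 and 91.3 to 231, 236 and 241 CPM. In the whole list of 41 genes under LEA proteins and dehydrins 9 rose and 13 fell, below the share of all genes in both directions. The list also holds genes whose descriptions name neither, such as cold regulated gene 27 (MSTRG.4638) and ERD4 (MSTRG.41444). Senescence-associated gene 21 (MSTRG.51524), itself an LEA-type protein in Arabidopsis, rose from 3918, 4546 and 4430.4 to 9899.5, 10739 and 11316 CPM.

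Galactinol synthase makes the donor for raffinose, a sugar that accumulates in drying plants. Galactinol synthase 2 gene MSTRG.42832 rose from 91.6, 93.5 and 84.1 CPM at 9 h to 1112, 969 and 1019 CPM at 24 h (log2 fold change 3.53, SE 0.14, adjusted p = 3.00e-10), while MSTRG.46525 of the same description fell from 1355, 1142 and 1442 to 995, 751 and 888 CPM. At 9 h the second stood far above the first, and at 24 h they were at similar levels. Of the galactinol synthase 4 genes, MSTRG.25287 fell from 51.5, 52.2 and 50.5 to 6.73, 5.82 and 5.70 CPM and MSTRG.44664 rose from 77.6, 74.00 and 81.96 to 357, 299.8 and 338 CPM. Raffinose synthase genes MSTRG.36935 and MSTRG.45981 rose with log2 fold changes of 1.995 (SE 0.07) and 1.41 (SE 0.07). The list of 30 raffinose and trehalose genes had 10 that rose and 17 that fell. Its summed level was 10704 to 11749 CPM in the 9 h libraries and 20247 to 20897 CPM in the 24 h libraries.

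**Figure D3:**
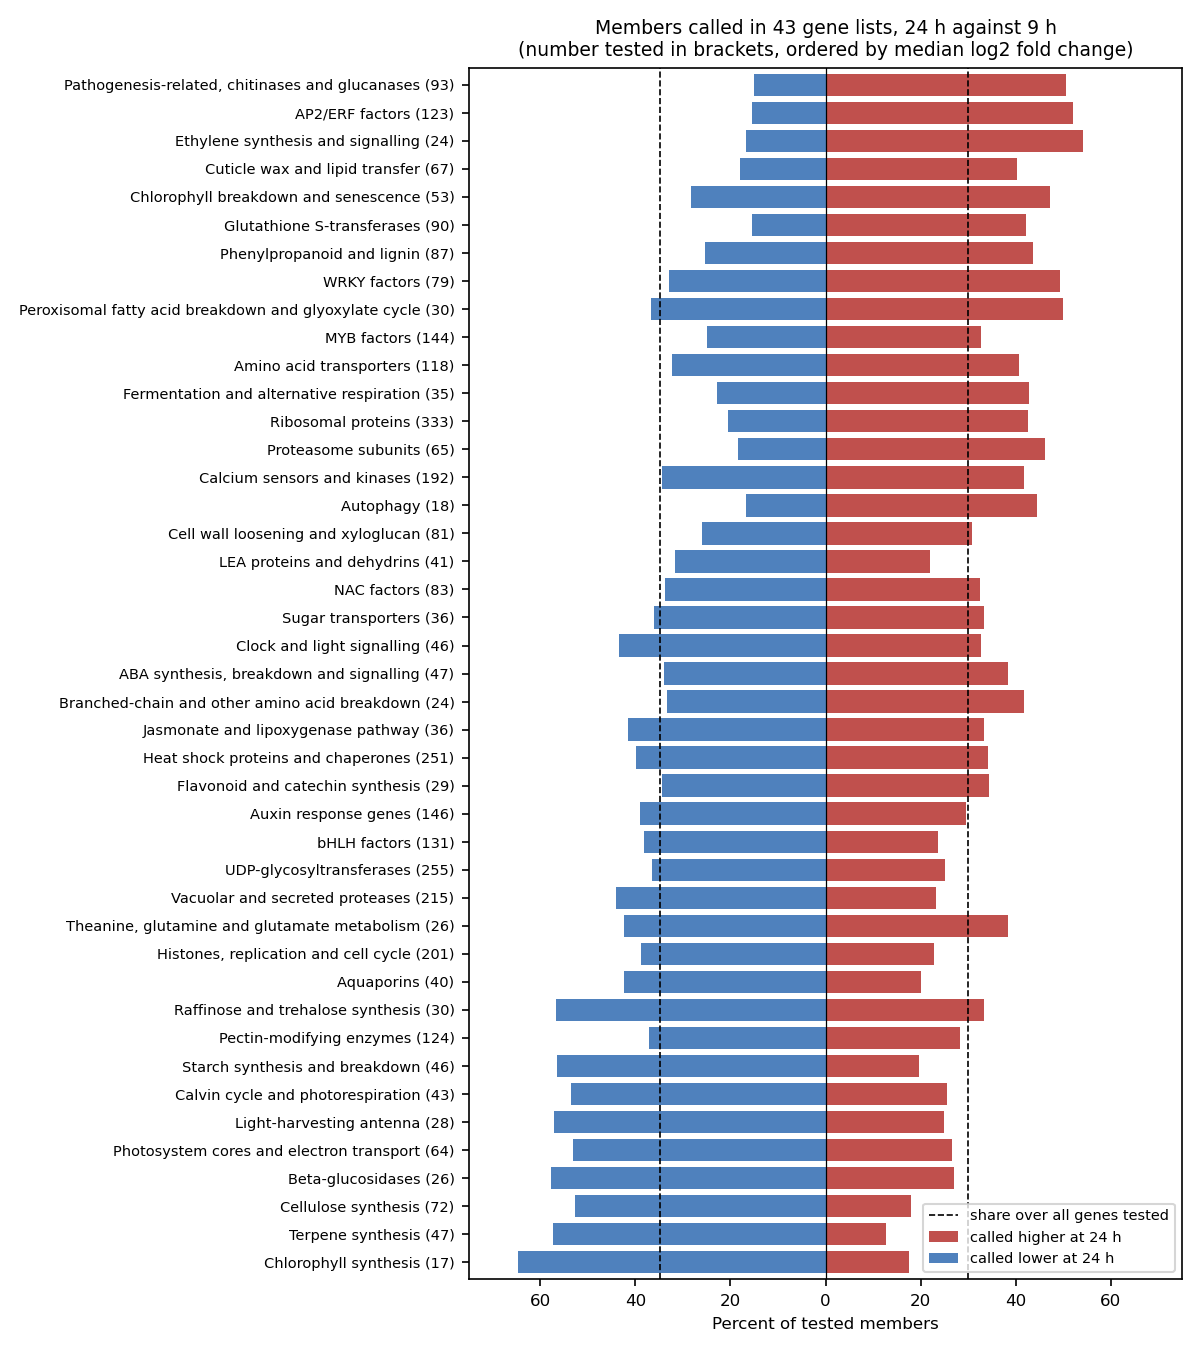
Percent of the tested members of 43 gene lists called higher (right) or lower (left) at 24 h than at 9 h by edgeR at an adjusted p under 0.05, ordered by the median log2 fold change, with dashed lines at the shares over all genes tested, 30.0% higher and 34.8% lower. Pathogenesis-related proteins and AP2/ERF factors stand at the top and chlorophyll and terpene synthesis at the bottom under TMM, and 14 of the 19 lists with a majority of rises turn to a majority of falls with library size as the only scaling.

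Genes of photosynthesis were lower at 24 h than at 9 h more often than higher. Of 28 light-harvesting antenna genes 7 rose and 16 fell (median -0.61), of 64 photosystem and electron transport genes 17 rose and 34 fell (-0.62), and of 43 Calvin cycle and photorespiration genes 11 rose and 23 fell (-0.55). Without replicate 3 of 9 h, 4 antenna genes rose in place of 7, and by library size alone 4 rose and 16 fell. The course was not a steady fall. The antenna genes summed to 1757 to 1832 CPM at 9 h, 2966 to 3856 CPM at 15 h and 834 to 1150 CPM at 24 h. The 15 h mean lay above those of 9 h and 24 h in 8 of the 16 antenna genes that fell. So it did in 12 of the 34 photosystem genes and 2 of the 23 Calvin cycle genes that fell. The small chain of rubisco at the highest level (MSTRG.12209) was at 2764, 4771 and 4854 CPM at 9 h and 1158, 1033 and 1041 CPM at 24 h, after a mean of 12689.9 CPM in fresh leaves. Sedoheptulose-bisphosphatase (MSTRG.18730), which regenerates the carbon dioxide acceptor, fell from 176, 141 and 147 to 14.1, 14.1 and 12.97 CPM, and subunit A of the plastid glyceraldehyde 3-phosphate dehydrogenase (MSTRG.22107) from 322, 300.2 and 268 to 61.4, 41.8 and 46.1 CPM. Serine transhydroxymethyltransferase 1 (MSTRG.16059), of photorespiration, fell from 118, 119 and 124 to 17.8, 10.96 and 11.3 CPM. Of the called genes, 4 antenna genes rose and 9 fell by an estimate over 2-fold. In the photosystem list these were 13 and 26, and in the Calvin cycle list 5 and 19. Photosystem II reaction center protein E (MSTRG.49109) rose from 3.47, 4.93 and 4.46 to 42.5, 20.7 and 31.9 CPM. A rubisco small chain 1A gene (MSTRG.35818) rose from 0.471, 0.734 and 0.667 to 14.1, 13.4 and 15.7 CPM. MSTRG.44696, of the photosystem I antenna, had a mean of 431 CPM at 0 h. It was at 3.41, 3.49 and 2.87 CPM at 9 h and 5.88, 3.69 and 4.35 CPM at 24 h. This rise was past the threshold (adjusted p = 0.0132), but not without replicate 3 of 9 h (adjusted p = 0.0586) or replicate 1 of 24 h (0.103), with the 9 h and 24 h libraries alone (0.0678) or by library size alone (log2 fold change 0.050, adjusted p = 0.775).

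One rubisco activase gene had a course of its own. Rubisco activase keeps the carbon-fixing enzyme rubisco free of inhibitory sugars. MSTRG.46674 (scaffold 786, 297712 to 301470) was at 612, 566 and 557 CPM in the 9 h libraries and at 11.2, 3.47 and 2.90 CPM in the 24 h libraries, a 98.96-fold fall in means (log2 fold change -6.61, SE 0.43, adjusted p = 2.66e-08). Its level had been 6.45 CPM in fresh leaves and was 129 CPM at 15 h. The other 2 activase genes were highest in fresh leaves. MSTRG.18095 was at a mean of 3325 CPM at 0 h, 819, 805 and 775 CPM at 9 h and 189.5, 177 and 165 CPM at 24 h. MSTRG.48754 had a mean of 925 CPM at 0 h and fell from 459, 437 and 425 to 162, 115 and 127 CPM.

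The marker genes of leaf mesophyll, which are themselves photosynthesis genes and share members with these lists, summed to 9094 to 11274 CPM at 9 h and to 3515 to 4131 CPM at 24 h, with 3 of 34 higher and 24 lower. Of the 37 in the table, 2 had no read in any library. In whole leaves, fewer mesophyll cells and less of these RNAs per cell cannot be told apart. Markers of dividing cells summed to 189.9 to 206.5 CPM and then 100.5 to 116.4 CPM, and 2 of 29 were higher and 16 lower. Markers of the epidermis summed to 1379 to 1814 CPM and then 2453 to 2608 CPM, with 14 of 22 higher and 4 lower. The part of a changed make-up of cells in these results was not tested.

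Genes of chlorophyll synthesis fell more often than they rose. Of the 17 genes in that list 3 rose and 11 fell (median -1.23). It also holds genomes uncoupled 1 (MSTRG.16022), whose description names no step of the pathway. Magnesium-protoporphyrin IX methyltransferase (MSTRG.33594) fell from 67.5, 75.6 and 69.2 to 24.2, 29.3 and 27.2 CPM. The exception at a high level was a glutamyl-tRNA reductase gene (MSTRG.1314), of the first step of the pathway that chlorophyll shares with heme, which rose from 245, 237 and 230.4 to 792, 696 and 735 CPM. In the list of chlorophyll breakdown and senescence genes, 25 of 53 rose and 15 fell, with 17 in each direction by library size alone. Non-yellowing 1 (MSTRG.18747), of this list, rose from 52.8, 50.01 and 50.7 to 199, 197 and 223 CPM (log2 fold change 2.01, SE 0.08, adjusted p = 2.20e-10). Pheophorbide a oxygenase (MSTRG.12476), which opens the chlorophyll ring, rose from 195, 187 and 180.1 to 485, 507 and 462 CPM.

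Nitrogen genes shifted within the glutamate and glutamine list, in which 10 of 26 genes rose and 11 fell, and 6 rose and 15 fell by library size alone. Glutamine synthetase 2 (MSTRG.46808), the plastid enzyme that recaptures ammonium in photosynthetic leaves, fell from 175, 176 and 180.2 to 35.3, 27.7 and 29.01 CPM. Glutamate synthase 1, in Arabidopsis its ferredoxin-dependent partner in the chloroplast, is the description of MSTRG.36184 and MSTRG.7022. The first fell from 187, 174 and 169.7 to 57.1, 50.1 and 52.5 CPM, and the second from 54.1, 40.95 and 46.2 to 0.381, 4.99 and 1.80 CPM. The cytosolic glutamine synthetase genes MSTRG.1757 and MSTRG.11376 (described as clone R1) also fell, by 1.09 and 1.07 on the log2 scale (SE 0.09 and 0.10). Glutamate dehydrogenase 2 (MSTRG.49935), which releases ammonium and carbon skeletons from glutamate, rose from 10.6, 9.22 and 10.1 to 170.4, 143 and 149 CPM, 15.5-fold in means (adjusted p = 3.57e-10). Of the other glutamate dehydrogenase genes named, MSTRG.24393 rose (log2 fold change 1.22, SE 0.08) and MSTRG.35351 fell (-2.21, SE 0.13). Arginine decarboxylase 2, of polyamine synthesis, had one gene that fell from 1688, 1636 and 1589.7 to 475, 549 and 508 CPM (MSTRG.24406) and one that rose from 124, 120.4 and 128 to 228, 266 and 228 CPM (MSTRG.49842). Amino acid, peptide and nitrate transporters had 48 of 118 that rose and 38 that fell, and 36 and 49 by library size alone. Nitrate transporter 1.5 (MSTRG.2631) rose from 1.42, 1.01 and 0.744 CPM at 9 h to 91.5, 93.96 and 97.5 CPM at 24 h, with 28.5 CPM at 15 h.

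CsPDX2.1 (MSTRG.33795), the gene of vitamin B6 and theanine metabolism that the study followed, was at 189.6, 202 and 170.3 CPM at 9 h and 135, 162 and 153 CPM at 24 h. Its 0 h mean, 114 CPM, was below both groups. The difference between 9 h and 24 h was small (log2 fold change -0.32, SE 0.11, adjusted p = 0.0191). It was lost without replicate 2 of 9 h (adjusted p = 0.0765), without replicate 1 of 24 h (0.0558) with the size factors of DESeq2 (0.0695) and with DESeq2 itself (0.0616). The other gene described as pyridoxine biosynthesis 2, MSTRG.9423, overlapped between the groups and did not pass (log2 fold change -0.37, SE 0.26, adjusted p = 0.227), although by library size alone it was lower at 24 h (-0.83, adjusted p = 0.0138). The 6 transcription factors that the study took from genes correlated with CsPDX2.1 in these libraries were all lower at 24 h than at 9 h, a direction that is not independent of how they were chosen. CsWRKY40 (MSTRG.6798) was at 15.3, 14.8 and 13.8 CPM at 9 h and 4.01, 1.997 and 3.26 CPM at 24 h (log2 fold change -2.23, SE 0.23), with a mean of 3.94 CPM at 0 h. Its description is WRKY DNA-binding protein 18, so it is not one of the 4 genes described above as WRKY40. CsGRAS (MSTRG.35117) was at 49.2, 48.4 and 48.4 and then 11.4, 10.9 and 12.2 CPM, and CsB3 (MSTRG.24832) at 109, 99.7 and 101 and then 36.4, 34.4 and 30.5 CPM. CsbHLH (MSTRG.8952), CsZF (MSTRG.49989) and CsbZIP (MSTRG.22195) had log2 fold changes of -1.43, -1.40 and -0.97 (SE 0.16, 0.12 and 0.07).

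A laccase had the largest gain in CPM after the dehydrin among described genes. These copper enzymes oxidise phenols, in lignin formation and other reactions. MSTRG.10839 (scaffold 1759, 1081855 to 1087105) was at 1948, 1876 and 1563 CPM at 9 h and 18096, 17354 and 17842 CPM at 24 h, 9.89-fold in means (log2 fold change 3.31, SE 0.09, adjusted p = 2.68e-11), from 110.4 CPM in fresh leaves. MSTRG.33660 was at 812, 1055 and 901 CPM and then 8245, 8735 and 7436 CPM, and laccase 7 genes MSTRG.4918 and MSTRG.51273 rose from means of 6.64 and 1.94 to 74.7 and 32.7 CPM. Of 7 genes of the same broad laccase description as MSTRG.10839, 3 rose and 4 fell, such as MSTRG.18731 from a mean of 41.1 to 4.61 CPM. Together the phenylpropanoid and lignin genes summed to 4845 to 5417 CPM at 9 h and 30160.1 to 31675 CPM at 24 h. Laccases MSTRG.10839 and MSTRG.33660 carried most of that gain, with 2464 to 2931 CPM at 9 h and 25278 to 26341 CPM at 24 h between them, and the other 85 genes summed to 2381 to 2608 CPM and then 4519.99 to 5334 CPM. Of 87 such genes 38 rose and 22 fell, and 30 and 31 by library size alone. Phenylalanine ammonia-lyase 2 (MSTRG.8319), the entry enzyme of the pathway, rose from 169, 159 and 147 to 480.0, 472 and 494 CPM, and the following enzymes cinnamate-4-hydroxylase (MSTRG.31426) and 4-coumarate:CoA ligase 2 (MSTRG.17556) from 136, 123 and 112 and 339, 311 and 297 to 362, 258 and 309 and 978, 748 and 833 CPM. Markers of vascular cells, a list that holds the laccases, summed to 2801 to 3298 CPM at 9 h and 25800.4 to 26861 CPM at 24 h, with 13 of 39 higher and 11 lower and 8 of 51 at 0 in all libraries, and their part in the rise was not tested.

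In the flavonoid list 10 of 29 genes rose and as many fell. A chalcone synthase gene (MSTRG.14841), of the first step of flavonoid and catechin synthesis, rose from 10.9, 10.9 and 11.1 to 213, 190.4 and 219 CPM (log2 fold change 4.24, SE 0.12, adjusted p = 2.68e-11). Its neighbour MSTRG.14844 rose less, from 26.4, 25.3 and 23.2 to 46.9, 36.3 and 38.8 CPM, and flavanone 3-hydroxylase (MSTRG.27966) fell from 27.2, 24.6 and 27.1 to 18.2, 15.3 and 14.5 CPM. Terpene genes, which supply floral volatiles of tea, mostly fell: 27 of 47 fell and 6 rose (median -1.06), and 32 fell and 2 rose by library size alone. Deoxyxylulose-5-phosphate synthase (MSTRG.19383), of the first step of plastid terpene precursors, fell from 99.2, 89.6 and 101 to 11.9, 16.5 and 14.01 CPM. Terpene synthase 02 (MSTRG.35008) fell from 81.7, 72.7 and 83.6 to 15.9, 17.1 and 18.3 CPM, and terpene synthase 04 (MSTRG.39055) from 37.01, 41.6 and 48.2 to 5.44, 5.44 and 6.73 CPM. A gene of the same description 1427 bases away, MSTRG.39054, fell from 17.1, 17.6 and 20.9 to 0.190, 1.34 and 0.364 CPM. Of 26 beta-glucosidases, enzymes that can free volatiles from their sugar conjugates, 7 rose and 15 fell.

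Cellulose, cell cycle and aquaporin genes fell more often than they rose, as did all genes tested (34.8% fell and 30.0% rose). The shares that fell were 52.8% of the cellulose, 42.5% of the aquaporin and 38.8% of the cell cycle genes. That of the cell cycle genes was thus near the share of all genes. Of 72 cellulose synthesis genes 13 rose and 38 fell (median -0.98), cellulose synthase-like E1 (MSTRG.31134) from 43.8, 40.7 and 37.2 to 5.93, 2.15 and 2.37 CPM. The largest change among called members of at least 5 CPM was a rise, that of a COBRA-like gene (MSTRG.44646). It had 5, 6 and 0 reads at 9 h and was at 15.1, 16.6 and 14.2 CPM at 24 h (log2 fold change 8.68, SE 0.61). Expansin-like B1, whose relatives loosen walls, rose in 7 of 8 genes, MSTRG.15582 from 0.686, 0.678 and 0.0656 to 151, 98.2 and 145 CPM and MSTRG.30953 from 0.806, 0.599 and 1.19 to 77.6, 84.4 and 93.9 CPM. Of 201 histone, replication and cell cycle genes 46 rose and 78 fell (median -0.37), and 29 rose and 106 fell by library size alone. Their summed level was 5115 to 5214 CPM at 9 h and higher, 6302 to 7404 CPM, at 24 h. Of 40 aquaporins, the water channels of membranes, 8 rose and 17 fell (5 rose without replicate 1 of 24 h, and 3 rose and 24 fell by library size alone). The summed level of the aquaporins overlapped, at 6363 to 7015 CPM at 9 h and 6366 to 7782 CPM at 24 h. Among 215 proteases 50 rose and 95 fell, with an aspartyl protease (MSTRG.36033) falling from 1641, 927 and 1191 to 79.2, 81.2 and 86.97 CPM. The summed level of the proteases was nevertheless higher at 24 h, at 13874 to 15419 CPM against 9916 to 10663 CPM at 9 h. Starch genes fell more often than they rose, 26 against 9 of 46. Ribosomal protein genes rose in 142 of 333 cases and fell in 68 under TMM, but in 74 and 140 by library size alone, and proteasome subunits in 30 and 12 of 65, but in 10 and 25 by library size alone, so these directions depended on the scaling.

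Of genes that detoxify reactive compounds, several rose far. Of 90 glutathione S-transferases 38 rose and 14 fell, which became 27 and 28 by library size alone. Tau 7 (MSTRG.26897) rose from 27.3, 34.1 and 32.8 to 606, 581 and 678 CPM (log2 fold change 4.31, SE 0.13). Metallothionein 2A (MSTRG.23235), a small metal-binding protein, rose from 2221, 2532 and 2350.2 to 9542, 10068 and 11499.8 CPM, and formate dehydrogenase (MSTRG.33151), a mitochondrial enzyme induced by stress, from 1328, 1240.1 and 1414 to 5828, 6227 and 5923 CPM. Of 67 cuticle and lipid transfer genes 27 rose and 12 fell (median 0.57), and 22 and 20 by library size alone.

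Genes for sensing at the cell surface made up much of the largest falls. Of the 12 largest falls among described genes of at least 10 CPM, 6 had descriptions that match the words of a list of receptor-like kinases and receptor-like proteins, most of which bind signals outside the cell, though not all of these descriptions say receptor. MSTRG.17374, a leucine-rich repeat receptor-like kinase, was at 228, 227 and 217 CPM at 9 h and 4.63, 2.32 and 3.55 CPM at 24 h, a 64.05-fold fall in means (log2 fold change -5.99, SE 0.20, adjusted p = 7.14e-11). Wall-associated kinase 2 (MSTRG.23619) fell from 32.6, 30.4 and 31.4 to 1.92, 0.904 and 0.443 CPM and receptor-like protein 12 (MSTRG.32582) from 33.3, 30.5 and 30.2 to 1.13, 1.39 and 0.380 CPM. MSTRG.1956, described as a protein kinase with a leucine-rich repeat domain, words in an order that the list does not match, was at 26.4, 25.9 and 25.4 CPM at 9 h, and at 24 h it had 8 reads, all in replicate 1. The list, made after these values were seen, had 145 of 851 tested members that rose (17.04%) and 422 that fell (49.6%), with a median of -1.04 and a summed level of 10458 to 10549.7 CPM at 9 h and 8389 to 9376 CPM at 24 h. The exceptions included an S-locus lectin kinase (MSTRG.17060), which rose from 53.9, 51.6 and 52.5 to 415, 453 and 418 CPM.

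Among the 12 largest rises, 3 were of the FAD-binding berberine family, oxidases some of which act on cell wall sugars or alkaloids in other plants. MSTRG.36803 (scaffold 4842, 222324 to 223937) was at 32.9, 31.4 and 31.4 CPM at 9 h and 3826, 3989.9 and 3998 CPM at 24 h, 124-fold in means (log2 fold change 6.95, SE 0.14, adjusted p = 3.69e-12), with 400.1 CPM at 15 h. MSTRG.10392 and MSTRG.5573 were nearly silent at 9 h (0.120, 0.237 and 0.252 and 0.239, 0.294 and 0.153 CPM) and reached 45.6, 44.1 and 44.1 and 42.6, 39.1 and 40.1 CPM. Of 17 tested members of the family, a list also made after the values were seen, 12 rose and 2 fell (10 and 4 by library size alone), with a median of 1.70. Methyl esterase 3 (MSTRG.44303), whose Arabidopsis relatives release active hormone from methyl esters, rose from 0.511, 0.644 and 0.328 to 73.5, 53.5 and 70.7 CPM. Another 2 of the 12 were cytochromes P450, MSTRG.24006 (0.223, 0.147 and 0.273 and then 43.7, 36.4 and 43.7 CPM) and MSTRG.4856 (0.359, 0.113 and 0.219 and then 33.9, 40.5 and 43.9 CPM).

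Clock genes change with the hour of the day as well as with stress. The 0 h and 24 h libraries are 24 h apart and so share the hour of the day. No unwithered leaves were sampled at the hour of the 9 h libraries, so the comparison of 24 h with 9 h cannot separate the hour from the treatment. Pseudo-response regulator 5 (MSTRG.5400), which peaks in the afternoon in Arabidopsis, was at 6.47, 5.32 and 5.84 CPM at 9 h and 103, 111 and 104 CPM at 24 h. FKF1 (MSTRG.20180), a blue light receptor of the flowering pathway, rose from 4.35, 4.63 and 4.004 to 65.1, 67.98 and 68.6 CPM, and was at 47.6 CPM at 0 h. Its partner gigantea rose in both genes named, MSTRG.25319 from 18.00, 16.6 and 16.8 to 108, 124 and 102 CPM and MSTRG.13979 from 22.5, 18.7 and 18.4 to 52.04, 80.1 and 61.1 CPM. In FKF1 and PRR7 (MSTRG.29647, 70.99 CPM at 0 h, 9.43 CPM at 9 h and 68.8 CPM at 24 h), 9 h was the lowest of the 4 times. Of 46 clock and light signalling genes 15 rose and 20 fell.

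The levels at the other times are given as a description because they share the libraries compared. The 15 h mean lay between those of 9 h and 24 h for 73.0% of the genes that rose and 68.1% of those that fell. The share was 55.1% of all genes tested and 27.1% of the genes not called. Calling selects genes with a wide gap between 9 h and 24 h, so another mean lies inside that gap more often. These shares are therefore no test of a longer course, and the selection also bears on the 0 h shares below. The 0 h mean was below both for 59.4% of the genes that rose and above both for 58.6% of the genes that fell, against 35.1% and 39.6% of all genes tested. Among the genes that fell, 30.9% had a 0 h mean between those of 24 h and 9 h, against 25.3% of all genes tested. Rubisco activase MSTRG.46674 was one of them. Only 10.5% of the genes that fell had a 0 h mean below both, against 35.1% of all genes tested. Dehydrin MSTRG.44795 was one of these (1545 CPM at 0 h, 6206 CPM at 9 h and 3538 CPM at 24 h).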

How the data were processed

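The values are raw counts of reads per gene and library, as the authors deposited them in 1 table. According to the submitters' processing notes, reads passed through FastQC 0.10.1 and Trimmomatic, HISAT2 2.0.5 and StringTie 1.3.1. Which genome build, strand option and counter were used is not given in the sources used here, and scaffold coordinates are those of the table. Columns were tied to samples by title, from which the column names differ by 1 letter. Every line names a gene. No identifier of the table (0 of 52332) matched the RefSeq gene table, so no sequence is printed.

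Counts were filtered with filterByExpr by time, scaled by TMM and tested with edgeR 4.0.16 in R 4.3.3 (glmQLFit and glmQLFTest, time as a factor over 12 libraries, contrast 24 h minus 9 h), with Benjamini-Hochberg adjustment over 26712 genes and a threshold of 0.05. Each SE was taken as the absolute log2 fold change over the square root of its F value. The fit was tested on simulated data first. Replicates all differed by more than sampling noise, so none was counted as a duplicate. The alternatives tried were DESeq2 1.42.0, edgeR with the size factors of DESeq2 or with library size alone, no filter beyond 1 count, a mean of at least 20 counts, the 9 h and 24 h libraries alone, the replicate number as a block, a fold over 2 (glmTreat) and each library left out.

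The comparison, the gene lists and the genes named were chosen with earlier results of these data known. The 43 lists match words in the gene descriptions up to the first semicolon. Exclusions of false matches were added after the descriptions were seen, and 1 of them, for the cell cycle list, after the results were seen. Lists for receptor-like kinases, berberine enzymes and cytochromes P450 were added after the values were seen. Lists are given as counts and medians only, with no test. The rule named the 12 largest rises and 12 largest falls among described, called genes of at least 10 CPM without overlap, the 6 with the largest difference in CPM, the 3 largest changes of at least 5 CPM per list, and the genes of the study. Not every gene it took is printed, and genes outside it were named after their values were seen, to show near relatives or abundant members.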

Additional observations from a re-analysis of the deposited data

How the results depend on the processing

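Of the counts over all genes, 8007 that rose and 9292 that fell became 8833 and 8964 with DESeq2 and 8604 and 8670 with its size factors. With library size alone they became 4975 and 13268, and 157 calls turned direction. With a fold over 2 as the null value they were 3011 and 3969. Leaving out each of the 6 libraries gave 7400 to 7773 that rose and 8594 to 9549 that fell. Of 19 lists with a majority of rises, 14 turned to a majority of falls by library size alone, and none with a majority of falls turned. The cause was not tested. Of the named genes, the LOX2 gene MSTRG.2052 and the phosphatase gene MSTRG.40750 changed sign by library size alone, to -0.033 and -0.0070. Without 24 h replicate 2, 5 autophagy genes fell in place of 3. No setting varied the depth. Levels under 1 CPM rest on few reads, such as the 8 reads of MSTRG.28175 in 9 h replicate 2.

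Whether the replicate numbers pair the samples is not stated, and the libraries showed no sign of it. The correlations of same-numbered deviations were 0.030, -0.008 and 0.016, against -0.039 to 0.026 for libraries of different numbers. A pairing with a weak effect could also give such values. With the replicate number as a block, 7780 genes rose and 9118 fell.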

Other observations

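MYB factors, a family that includes activators of phenylpropanoid genes in Arabidopsis, had 47 of 144 members that rose and 36 that fell, and 28 and 51 by library size alone. The gene with the largest change was MYB116 (MSTRG.28777), at 21.4, 24.1 and 27.2 CPM at 9 h and 492, 451 and 529 CPM at 24 h. MYB63 (MSTRG.26277), an activator of lignin genes in Arabidopsis, rose from 15.4, 16.2 and 17.03 to 178, 212 and 203 CPM. In both, every 24 h library stood above every 9 h library. Heat shock proteins and chaperones had 86 of 251 that rose and 100 that fell, and 52 and 139 by library size alone. Heat shock protein 21 (MSTRG.8425), a chloroplast chaperone, fell from 29.7, 28.9 and 33.2 to 2.11, 1.28 and 1.19 CPM. The GH3 family gene MSTRG.3134, whose relatives join amino acids to hormones, rose from 4.44, 4.89 and 4.80 to 119.8, 125 and 118 CPM, although the list of auxin response genes had 43 of 146 that rose and 57 that fell. Acyl-activating enzyme 7 (MSTRG.35270), of peroxisomal acetate use, rose from 326, 313 and 309 to 2869, 2234 and 2492 CPM, and a pyruvate decarboxylase gene (MSTRG.44749), of fermentation, from 278, 268 and 268 to 1131, 1368 and 1285 CPM. Starch genes held opposite changes, with the alpha-amylase gene MSTRG.14904 rising from 17.4, 16.4 and 17.7 to 155, 122 and 123 CPM and the chloroplast beta-amylase gene MSTRG.32627 falling from 35.7, 36.6 and 37.9 to 6.47, 6.76 and 6.87 CPM. Among sugar transporters, the Nodulin MtN3 gene MSTRG.18722, of a family of sugar exporters, rose from 10.8, 11.3 and 13.5 to 83.1, 91.9 and 91.9 CPM.

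The gene with the largest log2 fold change of all those named, MSTRG.6156 (scaffold 1403, 90103 to 92065), is described as a MuDR family transposase. It had no read in any 0 h or 9 h library, 0.276, 0.204 and 0.149 CPM in the 15 h libraries and 27.1, 24.7 and 24.7 CPM in the 24 h libraries. Against a floor of 3 counts per library at 9 h it was at least 843-fold higher. It begins 4208 bases after the end of the lipoxygenase 1 gene MSTRG.6150 and lies on the same strand, and that gene rose as well (log2 fold change 2.995). Whether reads of the 2 genes belong to 1 transcript was not tested.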
